A study of Mus musculus with 36 samples.

Results

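Retinoic acid (RA)-treated mouse embryonic stem (ES) cells collected on day 2 were compared with ES cells collected 1 day after loss of leukemia inhibitory factor (LIF), the cytokine that keeps mouse ES cells undifferentiated in culture. The cells carry an Oct4:eGFP reporter, in which green fluorescence follows the Oct4 (Pou5f1) gene, and were sorted by fluorescence into high, medium and low gates. The RA group held the medium and low gates of cells kept for 2 days without LIF and with 0.1 µM RA. The day 1 group held the high (replicate 1), medium and low gates of cells kept without LIF and without RA. These 5 RNAs were chosen by their labels from 18 in the series, except that a second day 1 high library (replicate 2) was left out, as described below. Each was hybridised to 2 Affymetrix arrays (MG_U74Av2, chip A, and MG_U74Bv2, chip B), so that 10 of 36 arrays were compared. Other arms used here only as side values were controls collected 2 days after plating with 1000 U/mL LIF, cells after 3 and 5 days without LIF, and cells after 1 day of RA. All cells had been routinely grown on embryonic fibroblasts and were then plated on gelatin in serum medium, at a lower density the longer they were kept, and RNA was amplified in 2 rounds before labelling.

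RA, a derivative of vitamin A, enters cells, is carried by cellular RA-binding proteins and activates nuclear RA receptors, which pair with retinoid X receptors on DNA. In the embryo it patterns the hindbrain and spinal cord through the Hox genes and is kept in check by the Cyp26 enzymes that degrade it. In ES cell culture it is a classic inducer of neural and endodermal differentiation.

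Day, RA, plating density and the absence of a high gate from the RA group differ together here, and their shares cannot be told apart. The labels do not say that the gates of an arm came from separate cultures, so p-values measure the spread between these libraries, which may be technical. All 5 RNAs were scanned on 1 day, with 1 lot of each chip. Pairs of libraries within a group correlated more closely (Pearson r 0.977 to 0.979 on chip A and 0.932 to 0.937 on chip B, across probe sets that passed the brightness filter) than pairs between groups (0.913 to 0.935 and 0.842 to 0.869). On chip A the 3′ over 5′ signal of Actb, as a log2 ratio, was 0.788 to 0.863 in the RA libraries and 0.977 to 1.15 at day 1, and the Gapdh ratio was 0.620 to 0.836 against 0.917 to 0.996. The same order without overlap was seen on chip B. This measure of RNA quality therefore moved with the groups, and its part in the results was not tested. The high gate of day 1 without LIF has a further library (replicate 2), which stood apart from the other 3. It was scanned on another day than the 5 RNAs, with another lot of each chip. Its run record does not say whether RA was given, while those of the other day 1 libraries state no RA. The part of scan day and lot in its values was not tested. The signal of this library for Stra8, a gene named for its stimulation by RA, was 685, against 6.33, 3.65 and 5.11 in the others and 308 to 361 after 1 day of RA. It lay above the other day 1 libraries and all controls for 656 of the 870 genes that rose (2441 of all 9833 genes tested) and below them for 482 of the 678 that fell (1917 of all). It was left out of the day 1 group, and the counts of genes and of list members with it added are given beside the main counts.

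Signals are the authors' linear MAS5 intensities. Changes are differences of group means of log2(signal + pseudocount), given ± SE, and "rose" or "fell" means an adjusted p under 0.05 (limma, Benjamini-Hochberg). Of 9833 genes tested, 1548 (15.7%) changed, of which 870 (8.85%) rose and 678 (6.9%) fell. The changes reached 4-fold for 130 risen and 45 fallen genes, and the median change over all genes was 0.01. In each of the 1548 genes the groups did not overlap, and the medium gates alone and the low gates alone differed in the direction of the call. A lack of overlap is common here, since it was seen for 4959 of the genes tested (50.4%). The count of changed genes was 433 without the RA low library, 691 without the RA medium library, 944 without the day 1 medium library, 999 without the day 1 high library and 1104 without the day 1 low library. With the second day 1 high library added it was 61. The RA libraries were also set against day 5 without LIF (3 gates), where 917 genes differed (9.33%), 401 being higher with RA (4.08%) and 516 lower (5.25%). Both comparisons use the same RA libraries, so their values stand side by side below as separate measurements. The controls, the second day 1 high library, the day 3 arm and the day 1 RA arm were scanned on other days, and the day 5 B chips were of another lot.

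The marker genes of the RA cells proposed together with this comparison, Pmp22 and Cdh2, were both far higher in them than at day 1. As they came with the comparison, their rise is no independent evidence that they mark these cells. Pmp22, which encodes a membrane protein of peripheral myelin and of other cell types, had signals of 575 and 699 in the medium and low gates of the RA cells and of 12.9, 13.0 and 11.3 in the high, medium and low gates of day 1. Its change of 5.29 ± 0.15 (adjusted p = 1.29e-05) was the largest rise among the genes tested. The controls lay at 9.94 to 16.5, with the day 1 libraries, and day 5 without LIF lay between the groups at 62.2 to 311. The difference from day 5 was 2.09 ± 0.57 and did not pass the test (adjusted p = 0.0617). Cdh2, the gene of N-cadherin, an adhesion protein of neural and mesenchymal cells, had signals of 215 and 222 with RA and of 12.8, 9.58 and 16.7 at day 1. It rose by 3.73 ± 0.20 (adjusted p = 0.000123). Day 5 cells without RA had Cdh2 signals of 209 to 336, a difference that did not pass the test (-0.32 ± 0.21, adjusted p = 0.405). Cdh1, the gene of E-cadherin of epithelia and ES cells, did not pass the test (change -0.07, adjusted p = 0.819), with signals of 125 and 113 against 129.9, 138 and 108.

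Of the other 11 largest rises, 7 are given here and Stra8, Wnt8a, Gbp2 and Gbp2b with their lists. Dach1, a transcriptional cofactor of the retinal determination network, had signals of 501 and 493 against 4.93, 5.96 and 7.67 (change 5.26 ± 0.17, adjusted p = 0.000362). Plagl1, an imprinted zinc finger gene, rose by 4.94 ± 0.57 (adjusted p = 0.00851). Its day 1 signals were uneven (16.8, 25.9 and 1.04), and its call was lost without either RA library. Wls, which escorts Wnt proteins to the cell surface, rose by 4.65 ± 0.23 from 18.4, 17.6 and 11.1 to 415 and 560.5, and a second probe set rose by 2.71. Prtg, an immunoglobulin family protein of the early embryo, had signals of 2569 and 2800 against 75.2, 116 and 157 (change 4.51 ± 0.30). Hmga2, a chromatin protein of embryonic cells, rose by 4.03 ± 0.28. Lhfp rose by 4.04 ± 0.47, a call that was lost without the RA low library, and Fgfbp1, which releases fibroblast growth factors from the matrix, rose by 3.93 ± 0.54. For Wls, Prtg, Lhfp and Hmga2 the differences from day 5 (-0.09, 0.21, -0.62 and -0.93) did not pass the test. Plagl1 and Fgfbp1 were higher with RA than at day 5, by 3.45 ± 0.18 and 1.58 ± 0.21 (adjusted p = 0.00467 and 0.00476).

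**Figure D1:**
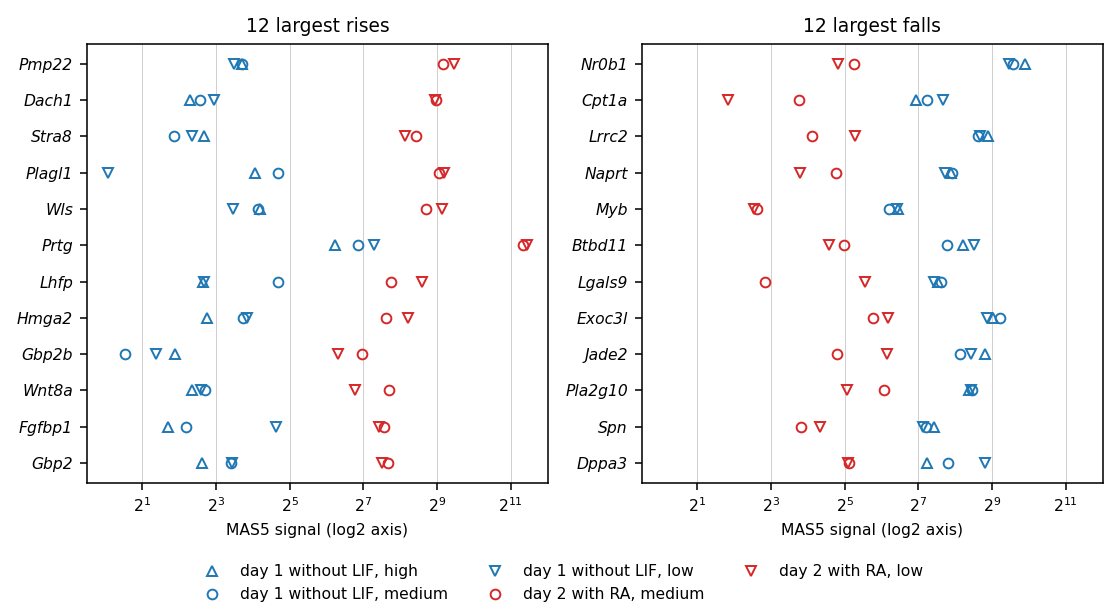
MAS5 signal (log2 axis) of the 12 genes with the largest rises (left) and the 12 with the largest falls (right) in each of the 5 libraries. Red symbols are day 2 with RA, blue symbols day 1 without LIF, and the symbol gives the gate. Red and blue do not overlap for any gene, as the choice required. The single low blue point of Plagl1 is the day 1 low gate.

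Most measured genes that bind, make or degrade RA rose. Of 7 measured members 6 rose and 0 fell, with a median change of 2.03 against 0.01 over all genes. Crabp2, which delivers RA to its nuclear receptors, had signals of 281 and 379.7 with RA and of 22.9, 22.6 and 21.1 at day 1. It rose by 3.66 ± 0.17 (adjusted p = 9.41e-05). Crabp1, which holds RA in the cytoplasm, rose by 3.32 ± 0.16, from 49.96, 47.3 and 41.4 to 448 and 547. Neither gene overlapped between the groups. The left-out second day 1 high library read 313 for Crabp2, between the RA signals, and 65.8 for Crabp1. Crabp1 stood at 74.8 to 83.8 at day 5 without LIF and at 71.8 to 98.3 after 1 day of RA. For Crabp2 these ranges were 35.4 to 39.1 and 40.6 to 82.9. Both were higher with RA than at day 5, by 3.00 ± 0.17 for Crabp2 and 2.57 ± 0.15 for Crabp1. Dhrs3, which reduces retinaldehyde back to retinol, had signals of 62.5 and 50.4 against 16.3, 10.6 and 5.88 and rose by 2.07 ± 0.29. Rdh10 and Rdh11, dehydrogenases of retinol metabolism, rose by 1.28 ± 0.16 and 0.95 ± 0.20. The list had 4 rises without the RA low library and 1 with the second day 1 high library added.

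Cyp26a1, the RA-degrading enzyme and a textbook RA target, also rose. Its signals were 54.0 and 75.5 with RA and 13.8, 12.8 and 11.3 at day 1 (change 2.03 ± 0.18, adjusted p = 0.000777), without overlap. Cells that had never received RA were far brighter at day 5, at 1438 to 1667, so that the RA cells were lower than day 5 (difference -4.54 ± 0.18, adjusted p = 6.08e-05). After 1 day of RA the signals were 84.2 to 112. With the second day 1 high library added, in which Cyp26a1 read 463, the call was lost.

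RA receptors bind direct repeats of a hexamer, and the promoters of Cyp26a1 and Rarb hold the classic examples. Both windows are shown because Cyp26a1 rose while Rarb could not be tested. They run from 250 bases before to 50 bases after the RefSeq transcription start (build GRCm38.p6), are written in the direction of transcription, and carry the matching direct repeat in capitals. The motif searched, on either strand, was a hexamer, then 5 bases of any kind, then a hexamer again. Each hexamer could be the consensus AGGTCA, which receptors of this family prefer. It could also be the variant AGTTCA, which makes up both hexamers of the Cyp26a1 match and the second of the Rarb match. The first hexamer of Rarb is the variant GGTTCA, and a further variant, GGGTCA, was allowed as well. In Cyp26a1 (chr19:37697558-37697857, plus strand) the match lies 32 to 16 bases before the start, on the opposite strand to the transcript. In Rarb (chr14:16575427-16575726, minus strand) it lies 53 to 37 bases before the start, on the strand of the transcript.
Cyp26a1: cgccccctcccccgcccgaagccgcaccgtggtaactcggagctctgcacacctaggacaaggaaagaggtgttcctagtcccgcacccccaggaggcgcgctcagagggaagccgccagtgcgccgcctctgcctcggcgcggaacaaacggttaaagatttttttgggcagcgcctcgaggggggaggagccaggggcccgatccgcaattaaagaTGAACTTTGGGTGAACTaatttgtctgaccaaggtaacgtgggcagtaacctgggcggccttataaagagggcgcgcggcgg
Rarb: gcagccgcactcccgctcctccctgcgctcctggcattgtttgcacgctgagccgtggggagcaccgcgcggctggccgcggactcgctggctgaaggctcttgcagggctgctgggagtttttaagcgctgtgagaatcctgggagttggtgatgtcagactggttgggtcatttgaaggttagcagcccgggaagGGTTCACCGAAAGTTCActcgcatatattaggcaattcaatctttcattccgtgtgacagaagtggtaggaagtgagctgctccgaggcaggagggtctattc
A match was found in 32 of 32851 RefSeq promoter windows of this length (0.0974%), and in 4 of the 10234 windows of genes tested (0.0391%). Of 912 windows of risen genes 1 held it (0.11%), that of Cyp26a1, and of 722 windows of fallen genes 1 held it (0.139%), that of Blvrb. The match describes these letters only and shows no binding.

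Receptors and their cofactors moved in both directions. Of 10 measured members 3 rose and 2 fell (median change -0.11). Rarg, an RA receptor, had signals of 95.5 and 60.9 with RA and 285, 248 and 233 at day 1 and fell by 1.69 on the log2 scale (change -1.69 ± 0.21, adjusted p = 0.00271). Ncoa2, a nuclear receptor coactivator, rose by 1.03 ± 0.17, Nr6a1, an orphan receptor that represses Oct4, by 0.76 ± 0.16, and Nrip1 by 0.59 ± 0.16. The count of rises was 0 without the RA medium, the RA low or the day 1 medium library and 1 without the day 1 high or the day 1 low library. The list had 0 rises and 0 falls with the second day 1 high library added. Ncoa3 fell (-1.02 ± 0.19) on the probe set used, a call lost without the RA low library, while another of its 3 probe sets changed by 0.12. Rarb lay under the brightness filter on chip B, with signals of 41.1 and 69.9 with RA and of 2.80, 51.2 and 42.1 in the high, medium and low gates of day 1, and was not tested.

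Genes known from the literature to respond to RA rose in 12 of 15 cases, with 0 falls and a median change of 2.03. This list was compiled with results of these data known and is no independent evidence of its direction. Stra8, which is needed for meiotic entry in germ cells and responds to RA in ES cells too, had signals of 345 and 279 with RA and of 6.33, 3.65 and 5.11 at day 1. It rose by 5.13 ± 0.18 (adjusted p = 2.78e-05). The LIF controls read 14.8 to 113, above the 3 day 1 libraries, and day 5 without LIF read 1.66 to 2.15, which put the RA cells 5.72 ± 0.15 above day 5 (adjusted p = 2.07e-05). After 1 day of RA the signals were 308 to 361, a range that holds the medium gate of day 2 and lies above its low gate. Efnb1, an ephrin ligand of boundary formation, rose by 3.80 ± 0.26 and Tshz1, a zinc finger patterning gene, by 3.30 ± 0.32. Zfp703, a transcriptional repressor, rose by 2.29 ± 0.23, and Gata6, an endoderm regulator, by 0.92 ± 0.15. Gata6 signals were 32.7 and 38.2 against 15.1, 17.7 and 17.5 at day 1 and 22.6 to 31.5 with LIF, and its call was lost without the RA low library. The list had 8 calls without the RA low library and 0 with the second day 1 high library added.

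**Figure D2:**
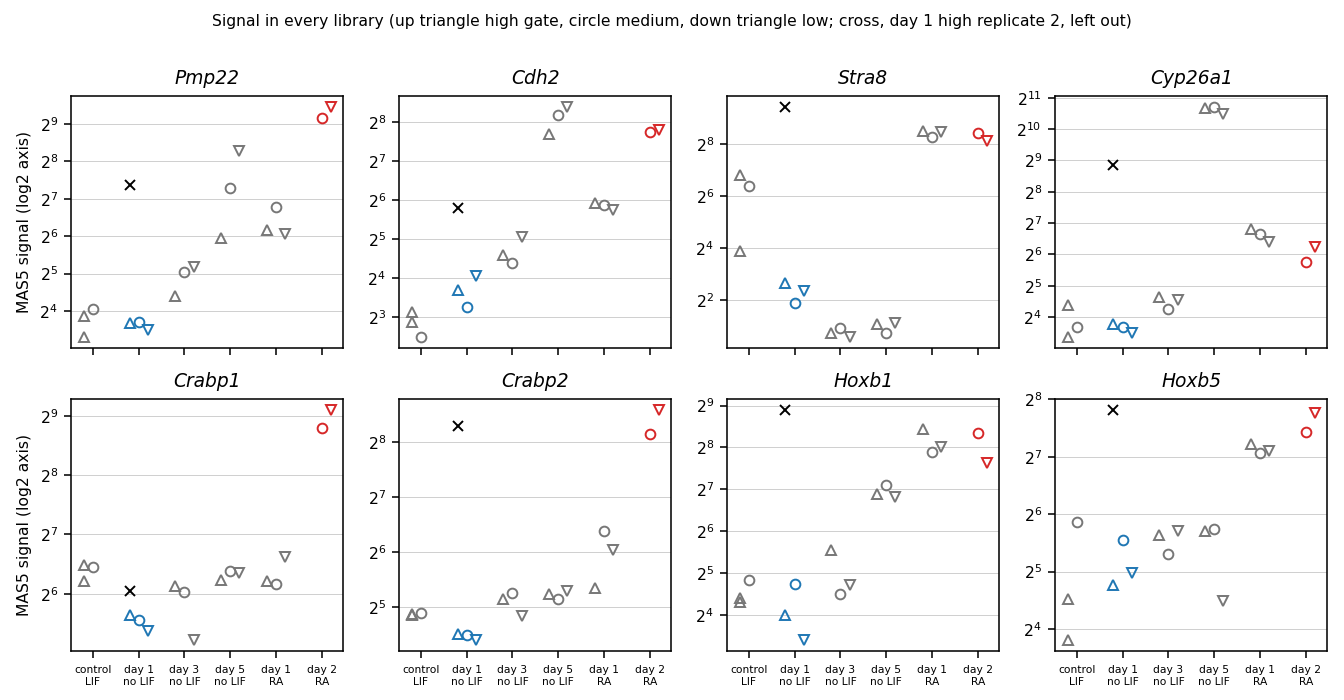
MAS5 signal (log2 axis) of 8 genes in all 18 libraries, by arm, with day 2 RA in red, day 1 without LIF in blue and the other arms in grey. Triangles pointing up, circles and triangles pointing down mark the high, medium and low gates, and the black cross is the second day 1 high library. Crabp1 is highest at day 2 of RA, Stra8 is as high after 1 day of RA, Cdh2 is as high at day 5 without LIF, and Cyp26a1 is far higher there. Controls, the second day 1 high library, the day 3 arm and the day 1 RA arm were scanned on other days than the red and blue points.

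Hox genes, which set position along the body axis, rose in part. Of 12 measured members 6 rose and 0 fell, with a median change of 1.14 against 0.01 over all genes. The other members of the 36-gene list lay under the brightness filter or had no probe set used here, and were not tested. The filter used the mean over all arrays, and some genes under it were bright with RA. On chip B, Hoxa9 had signals of 354 and 393 with RA against 2.75, 3.22 and 4.02 at day 1. Hoxa3 had 239 and 204 there, against 2.47, 3.60 and 4.28. Their chip A probe sets were dimmer with RA, at 25.4 and 67.4 for Hoxa9 and 25.7 and 32.5 for Hoxa3. Others, such as Hoxd13 (2.95 and 2.27 against 3.17, 3.41 and 2.08), were dim in both groups. Hoxb1, a direct RA target active in the hindbrain, had signals of 324 and 197 with RA and of 16.0, 26.5 and 10.6 at day 1. It rose by 3.63 ± 0.34 (adjusted p = 0.000861). Hoxb2, active in the neighbouring hindbrain segments, had 1348 and 1195 against 207, 193 and 159 (change 2.73 ± 0.19, adjusted p = 0.00354). Hoxb5 rose by 2.37 ± 0.24, Hoxb6 by 2.08 ± 0.22, Hoxb7 by 1.34 ± 0.24 and Hoxa2 by 1.40 ± 0.28, none with overlapping groups. The 6 that did not pass the test were Hoxa6 (0.94), Hoxc5 (0.86), Hoxc10 (0.61), Hoxb8 (0.40), Hoxd8 (0.15) and Hoxa4 (-0.17).

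Against day 5 without LIF, 6 of the 12 Hox genes were higher with RA and 0 lower. Hoxb5 was higher than day 5 by 2.17 ± 0.35 (adjusted p = 0.0098), Hoxb6 by 1.77 ± 0.21, Hoxb2 by 1.62 ± 0.19, Hoxa2 by 1.29 ± 0.14 and Hoxb7 by 1.03 ± 0.20. Hoxb1 differed least, by 1.02 ± 0.23 (adjusted p = 0.0334), with day 5 signals of 113 to 138. Leaving out either RA library lowered the Hox count against day 1 to 4, and adding the second day 1 high library lowered it to 0.

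Homeobox partners of the Hox proteins and other patterning homeobox genes rose in 5 of 9 cases, with 0 falls (median change 0.76). Irx3, an Iroquois factor of the neural tube, had signals of 219 and 245 against 37.8, 36.3 and 27.4 and rose by 2.65 ± 0.18 (adjusted p = 0.000252). Pknox2, of the TALE class that binds DNA with Hox proteins, rose by 3.48 ± 0.20, from 27.6, 17.7 and 24.8 to 325 and 329.9. Gbx2, which sets the border between midbrain and hindbrain, rose by 1.54 ± 0.18, and Pbx3, a Hox cofactor, by 1.27 ± 0.15. Irx3, Gbx2 and Pknox2 were also higher than day 5, by 2.68 ± 0.24, 2.05 ± 0.19 and 1.26 ± 0.16, and Pbx3 was not (difference -0.33, adjusted p = 0.176). Of these 9 genes 0 rose with the second day 1 high library added.

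**Figure D3:**
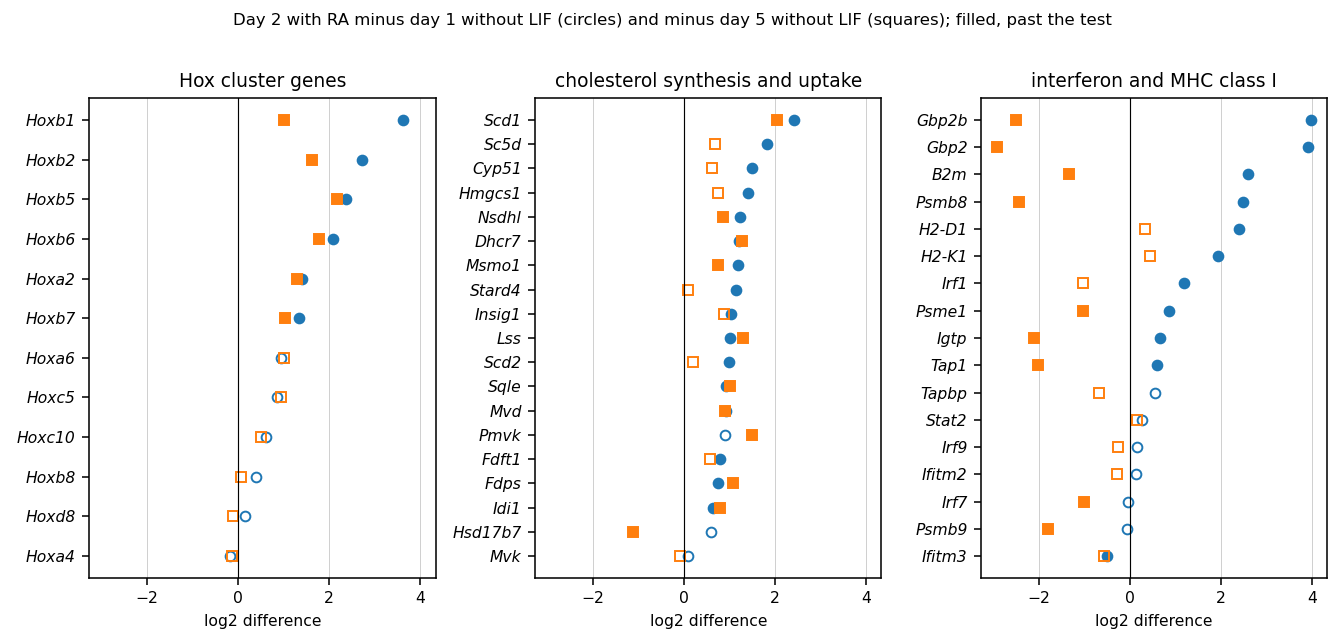
Log2 differences of day 2 with RA from day 1 without LIF (blue circles) and from day 5 without LIF (orange squares) for the measured Hox, cholesterol and interferon genes. Filled symbols passed the test, and both comparisons use the same RA libraries. The 6 called Hox genes lie to the right of 0 in both comparisons, while Gbp2 and Gbp2b lie at 3.92 and 3.99 against day 1 and at -2.92 and -2.50 against day 5.

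Several genes of neural progenitors rose. Of 22 measured members of the neural list 12 rose (54.5%) and 2 fell (9.09%), and the median change was 0.98. Over all genes tested 8.85% rose and 6.9% fell, so the share of falls was near that of all genes. The neural progenitor markers Sox1 (1.22 ± 0.23), Pax6 (1.10 ± 0.27), Nes (1.82 ± 0.21), Sox11 (0.69 ± 0.18) and Ncam1 (1.78 ± 0.16) all rose. Sox1 and Pax6, transcription factors of neural progenitors, had signals of 48.6 and 50.8 and of 41.4 and 42.9 with RA, against 24.96, 13.3 and 20.3 and 27.1, 12.3 and 16.0 at day 1. The LIF controls spanned 30.7 to 44.8 for Sox1. Nes, an intermediate filament of progenitors, had signals of 219.7 and 285 against 53.9, 81.6 and 71.5. Sox4, a SoxC factor of committed progenitors, rose by 2.02 ± 0.22, and each of its 3 probe sets was called. Hes1, a Notch target, rose by 1.28 ± 0.14, from 126, 124 and 119.5 to 326 and 285. It was lower than day 5 (-1.17 ± 0.16, adjusted p = 0.00495), whereas Sox3 was higher by 1.99 ± 0.30 and Pax6 by 1.80 ± 0.20. The list had 7 rises without the RA medium library, 8 without the RA low library and 3 with the second day 1 high library added.

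Mapt, the gene of the axonal protein tau, fell (-1.64 ± 0.17, adjusted p = 0.00123), with signals of 39.9 and 48.8 against 146, 165 and 129, and the controls were higher still at 289 to 603. Of its 4 probe sets 2 were called, with changes from -1.64 to -0.52. Neurod1, a factor of neuronal differentiation, fell (-0.73 ± 0.16). The list had 1 fall on leaving out any 1 library and 0 with the second day 1 high library added.

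Among neural crest and myelin genes 4 of 11 rose and 0 fell. Beside Pmp22 and Crabp1 these were Twist1, a mesenchymal regulator (2.32 ± 0.26, signals 62.4 and 95.7 against 8.75, 12.002 and 17.1), and Msx1, a homeobox target of bone morphogenetic proteins (1.60 ± 0.31). Msx1 lost its call without the RA medium library, and 1 of the 11 rose with the second day 1 high library added. Axon guidance and Eph genes rose in 8 of 22 cases (36.4%) and fell in 2 (9.09%), against 8.85% and 6.9% of all genes tested. The falls numbered 1 on leaving out any 1 day 1 library and 0 with the second day 1 high library added. Beside Efnb1, the receptor Epha2 rose by 1.20 ± 0.21, with signals of 568 and 361 against 189.5, 192 and 204, and day 5 cells were at 30.2 to 47.4 (difference 3.35 ± 0.26, adjusted p = 0.000687). Sema3e, a secreted guidance cue, rose by 1.49 ± 0.28 and Efna4, an ephrin ligand, by 1.35 ± 0.24. The count of 8 was 2 without the RA medium library, 3 without the RA low library and 0 with the second day 1 high library added. Sema3e was not called without either RA library, nor Efna4 without the RA medium library.

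Wnt genes rose in 9 of 25 cases and fell in 1 (median change 0.44). Wnt8a, a ligand of posterior axis formation, had signals of 207 and 110.1 with RA and of 5.09, 6.53 and 5.99 at day 1 and rose by 3.98 ± 0.26 (adjusted p = 0.000227). Its level was 7.20 to 45.0 at day 5 (difference 2.62 ± 0.58) and 103 to 234 after 1 day of RA. Wnt3, needed for the primitive streak, rose by 1.36 ± 0.17 to 56.2 and 74.5 but was far below day 5 cells at 226 to 252 (difference -1.84 ± 0.17, adjusted p = 0.00118). Among the Frizzled receptors of Wnt ligands, Fzd2 rose by 2.67 ± 0.20, from 156, 119 and 101.3 to 749.6 and 865. Fzd5 fell (-2.33 ± 0.20), from 569, 533 and 572 to 124 and 88.5. The count of rises was 4 without the RA low library, 5 without the day 1 high library, 5 without the day 1 low library, 6 without the RA medium library and 0 with the second day 1 high library added.

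In the Nodal, activin and bone morphogenetic protein (BMP) pathway 15 of 26 members rose and 3 fell (median change 0.63). The BMP targets Id3 and Id1, inhibitors of basic helix-loop-helix factors, rose by 1.38 ± 0.14 and 1.23 ± 0.16, and the inhibitory Smad6 rose by 1.47 ± 0.20. Lefty1, a secreted inhibitor of Nodal, rose by 1.37 ± 0.16, from 779, 788 and 815 to 2320 and 1829. It read 149 to 430.1 in day 5 cells (difference 2.99 ± 0.40, adjusted p = 0.00488). The 3 falls were Tdgf1, the Nodal co-receptor Cripto (-1.21 ± 0.28), Smad7 (-1.04 ± 0.21) and Gdf3 (-0.79 ± 0.21). The list had 5 rises without the RA low library, 7 without the RA medium library, 9 without the day 1 medium library and 10 without the day 1 high library. It had 0 falls without the RA low library and 1 without the day 1 high library, and 0 rises and 0 falls with the second day 1 high library added. In the fibroblast growth factor (FGF) pathway 3 of 17 members rose and 2 fell. Fgf4, a growth factor made by ES cells, fell (-2.54 ± 0.15) from 1367, 1282 and 1106 to 219.8 and 203. Dusp6, a feedback phosphatase of the pathway, rose by 1.51 ± 0.14 on the probe set used and by 0.44 on the other one, while Etv5, a target transcription factor, fell (-1.58 ± 0.16), a call lost without the RA low library. With the second day 1 high library added this list had 0 rises and 0 falls.

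Pluripotency genes, which keep ES cells self-renewing, fell in most cases. Of 24 measured members 21 fell and 0 rose (limma), and the median change was -1.45. At an unadjusted p under 0.05, 1 was higher and 21 lower. The gene behind the reporter, Pou5f1 (Oct4), had signals of 602 and 284 in the medium and low gates of the RA cells and of 2523, 2408 and 2322 in the high, medium and low gates of day 1. It fell (-2.53 ± 0.29, adjusted p = 0.00199). At day 1 the 3 gates thus hardly differed in Pou5f1 RNA, while in the RA cells the low gate was below the medium gate. In bulk RNA, fewer cells that express a gene and less RNA per cell cannot be told apart. Nr0b1 (Dax1), a nuclear receptor that binds Oct4 in ES cells, fell most (-4.45 ± 0.20), from 958, 756 and 700.4 to 38.0 and 28.2. Zfp42 (Rex1), a marker of naive ES cells, fell (-2.57 ± 0.16), and Tcl1, a coactivator of Akt (-2.26 ± 0.16). Klf4, a naive-state factor, fell (-1.49 ± 0.14), from 234, 259 and 271 to 91.2 and 85.1, and had been far higher with LIF, at 476 to 1061.

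Nanog and Sox2, core pluripotency factors beside Oct4, had smaller changes than Pou5f1. Nanog had signals of 1049 and 608 against 1619, 1565 and 1949 (change -1.09 ± 0.24, adjusted p = 0.0231), with both of its probe sets called, and Sox2 had 1744 and 1826 against 3268, 2944 and 3051 (change -0.79 ± 0.14, adjusted p = 0.00938). Neither gene overlapped between the groups, but Nanog was not called when the RA low library or any day 1 library was left out, nor Sox2 without either RA library. The 3 members that did not pass the test were Lin28a (0.46), Trim28 (-0.10) and Sall4 (-0.22). Beside day 5 cells, 6 of the 24 were higher with RA and 4 lower. Dppa2, an epigenetic priming factor, was higher by 3.63 ± 0.21, Dppa5a by 2.02 ± 0.16 and Sox2 by 1.52 ± 0.21, while Klf4 was lower (-1.06 ± 0.16). Pou5f1 and Nanog did not pass the test against day 5 (differences -0.71 and 0.54). The list had 13 falls without the RA low library and 1 with the second day 1 high library added.

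**Figure D4:**
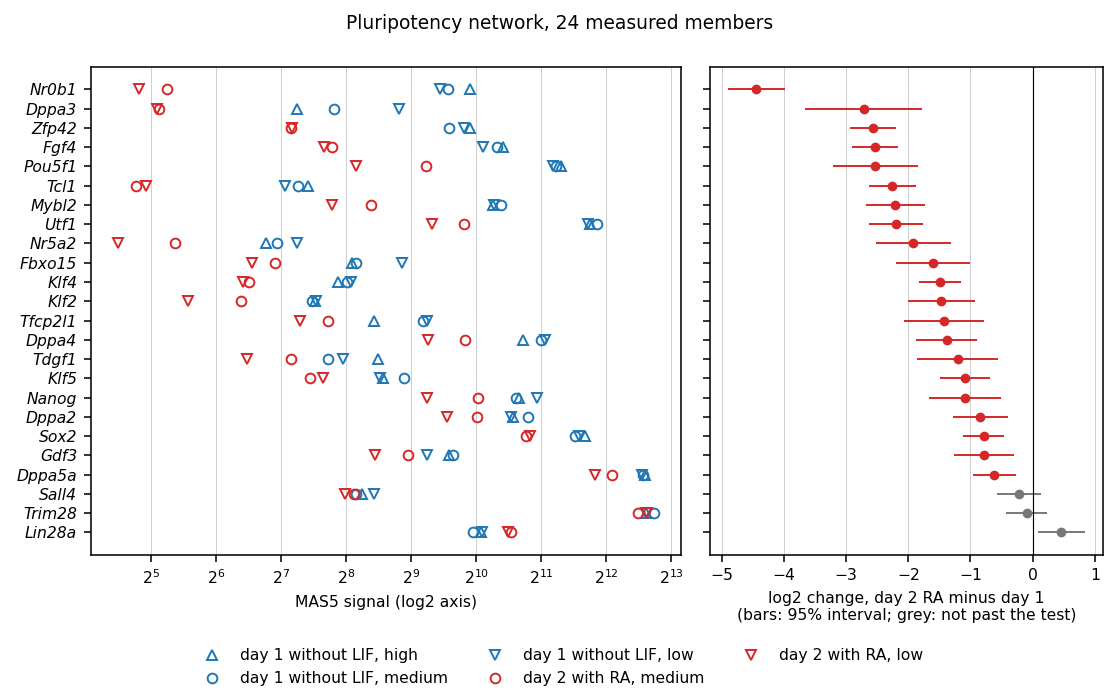
The 24 measured pluripotency genes: MAS5 signal (log2 axis) in each of the 5 libraries on the left, and the log2 change with its 95% interval on the right. Nr0b1 has the largest change, -4.45, and Sall4, Trim28 and Lin28a (grey) did not pass the test. The 3 day 1 gates of Pou5f1 lie together, and the RA low gate lies left of the RA medium gate.

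Of LIF and STAT3 pathway members 2 of 17 rose (11.8%) and 3 fell (17.6%), with a median change of 0.17. Over all genes tested 8.85% rose and 6.9% fell. Pim1, a kinase that STAT3 induces, rose by 1.05 ± 0.15 between groups that both lacked LIF, with signals of 2005 and 1880 against 939, 1041 and 841, and the LIF controls at 956 to 1135. Rhox5, an X-linked homeobox gene, fell (-1.22 ± 0.20) and Lifr, the LIF receptor (-0.83 ± 0.21). Lifr was not called without the RA medium, day 1 high or day 1 low library, nor Rhox5 without the RA low library, and the list had 0 rises and 0 falls with the second day 1 high library added. Socs3, the feedback inhibitor of LIF signalling, did not pass the test (change 0.21, signals 96.3 and 121 against 77.4, 108 and 94.3).

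Of 13 germ line and oocyte genes 1 rose, Stra8, and 6 fell. Dppa3 (Stella), a maternal factor and germ cell marker, fell (-2.72 ± 0.40, adjusted p = 0.00512), with signals of 34.8 and 34.1 against 151, 225 and 450.5. Its day 1 signal was lowest in the high gate and highest in the low gate, and the medium and low gates lay above the LIF controls at 55.4 to 162. Zp3, a component of the egg coat, fell (-2.20 ± 0.22) and Dnmt3l, a cofactor of DNA methylation in germ cells (-1.22 ± 0.18). The list had 2 falls without the RA low library, 3 without the RA medium library, 3 without the day 1 high library and 2 with the second day 1 high library added. Dnmt3l lost its call without either RA library.

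Among Polycomb and DNA methylation genes 8 of 19 fell and 2 rose (median change -0.59). The de novo methyltransferases Dnmt3a and Dnmt3b fell (-1.97 ± 0.18 and -1.61 ± 0.17). Their day 1 signals, 549, 439.7 and 390.2 for Dnmt3a and 2959, 2930 and 3058 for Dnmt3b, were above the LIF controls (149 to 217 and 806 to 1339). The RA cells, at 120.4 and 107 and 1067 and 879, were below the controls for Dnmt3a and within their range for Dnmt3b. A second Dnmt3a probe set changed by -0.56 and was not called, and both Dnmt3b probe sets were called. Jarid2, a Polycomb recruiter, fell (-1.32 ± 0.14) on 2 probe sets alike, and Phc1, a Polycomb component (-1.62 ± 0.21). Its relative Phc2 rose by 2.72 ± 0.37, from 34.2, 14.2 and 38.9 to 168 and 239. The count of falls was 4 without the RA low library, where Dnmt3b lost its call, and 5 without the RA medium library. It was 0 with the second day 1 high library added, as was the count of rises.

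Of the 12 largest falls, 10 lay outside the pluripotency list. Cpt1a, which carries fatty acids into mitochondria, fell (-3.79 ± 0.37), from 123, 149 and 204 to 13.6 and 3.56, and was at 7.45 to 34.0 by day 5 without LIF. Naprt, an enzyme of NAD synthesis, fell (-3.15 ± 0.25) and Pla2g10, a secreted phospholipase (-2.75 ± 0.26). Myb, a transcription factor of proliferating progenitors, had signals of 6.17 and 5.82 with RA and of 87.3, 73.8 and 85.2 at day 1 (change -3.10 ± 0.15, adjusted p = 9.41e-05). Its SE was the smallest of these 10, and it was below day 5 too (difference -1.52 ± 0.14, adjusted p = 0.00118). Spn, the leukocyte glycoprotein CD43, fell (-2.74 ± 0.19). Lgals9, the lectin galectin-9, fell (-2.99 ± 0.55), with uneven RA signals of 7.10 and 46.7 against 186, 198 and 172. The Lgals9 log2 change was -1.90 without the RA medium library and -4.09 without the RA low library, and its second probe set changed by -0.88. Jade2, a cofactor of histone acetylation, fell (-2.79 ± 0.38) and read 532 to 692 in day 5 cells (difference -3.59 ± 0.35, adjusted p = 0.0077). Its LIF controls, at 41.1 to 214, lay below its day 1 signals of 451, 283 and 342. Lrrc2 (-3.69 ± 0.29), Btbd11 (-3.10 ± 0.26) and Exoc3l (-2.93 ± 0.20) complete the list.

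Genes of the extraembryonic endoderm rose in 13 of 23 cases and fell in 1 (median change 1.14). Foxa2, an endoderm and floor plate factor, had signals of 95.8 and 131 with RA and of 9.08, 7.39 and 7.14 at day 1 and rose by 3.29 ± 0.18 (adjusted p = 0.000138). Plat, tissue plasminogen activator, rose by 2.96 ± 0.27, and Col4a1, of basement membrane collagen, by 3.01 ± 0.36. Dab2, an endocytic adaptor of the visceral endoderm, had 293 and 481 against 20.9, 54.4 and 96.1. Its RA signals were higher in the low gate, as were those of Col4a1 (365 and 765). Over all 870 risen genes 557 were higher in the low than in the medium RA library, where there is 1 library of each gate. The defining markers split: of 7 endoderm markers Gata6, Sox17 and Dab2 rose, and Gata4 (-0.07), Sox7 (0.61), Hnf4a (-0.28) and Afp (-0.37) did not pass the test. The summed signal of the 7 was 662 and 955 in the RA libraries and 374 to 433 at day 1. Dab2 alone gave 293 and 481 of the RA sums and 20.9 to 96.1 at day 1, so the difference rests mainly on this gene. Without the RA low library the list had 8 rises, and with the second day 1 high library added it had 1.

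Simple epithelial keratins, the intermediate filaments of early epithelia, rose. Krt8 rose by 2.46 ± 0.28, Krt18 by 2.50 ± 0.31, Krt19 by 2.46 ± 0.28 and Krt7 by 2.23 ± 0.35. Krt8, with 488 and 747 against 77.3, 113 and 138, remained below day 5 cells at 2201 to 2535 (difference -1.97 ± 0.20, adjusted p = 0.00188). These keratins made up 4 of the 6 rises among 13 trophoblast genes, beside Igf2 and Peg10, and 0 of the 13 rose with the second day 1 high library added. Of 5 defining trophoblast markers Krt7 rose, Hand1 did not pass the test (0.24) and Cdx2, Gata3 and Tpbpa lay under the brightness filter. Their summed signal was 129 and 266 in the medium and low RA libraries, 63.5 to 112 at day 1 and 116 to 140 in the controls. Hand1 gave 33.7 and 123 of the 2 RA sums. Primitive streak and early mesoderm genes rose in 4 of 12 cases and fell in 0. The count was 2 without the RA low library and 0 with the second day 1 high library added. The 4 were Foxa2, Wnt3, the receptor Pdgfra (1.99 ± 0.37) and the homeobox gene Lhx1 (1.04 ± 0.26), all but Foxa2 lower than at day 5, and Lhx1 lost its call without the RA medium, RA low or day 1 low library. Pdgfra lost its call without the RA low library, and its second probe set changed by 0.07. Eomes (-0.15) and Tbx6 (0.10), defining streak markers, did not pass the test.

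Contractile and matrix genes, which build actin fibres and basement membranes, rose in most cases. Of 29 cytoskeletal members 18 rose and 0 fell (median change 0.94), and of 22 extracellular matrix members 14 rose and 1 fell (median change 0.98). Tagln, a smooth muscle actin-binding protein, had signals of 961 and 1515 with RA and of 61.0, 88.2 and 85.5 at day 1 and rose by 3.90 ± 0.25 (adjusted p = 0.000212). Tpm1, a tropomyosin, rose by 2.25 ± 0.21, Cald1, caldesmon, by 2.60 ± 0.22 and Acta1, skeletal actin, by 3.79 ± 0.40. None of these 4 passed the test against day 5 (differences 0.80, 0.32, -0.30 and -0.40). Cnn1, calponin, rose by 2.03 ± 0.23 and was above day 5 by 2.84 ± 0.41. Dcn, a small matrix proteoglycan, rose by 3.48 ± 0.21, from 19.8, 17.4 and 14.5 to 188 and 285, and Hspg2, perlecan, by 2.09 ± 0.21. Gpc4, a cell-surface heparan sulfate proteoglycan, rose by 1.78 ± 0.18, and Col18a1, a basement membrane collagen, by 1.28 ± 0.14. Col18a1 was higher than day 5 by 2.58 ± 0.17, with 2394 and 2670 against 382 to 496. Without the RA low library 10 cytoskeletal rises were called. The rises numbered 0 for the cytoskeletal and 4 for the matrix list with the second day 1 high library added.

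Of 7 markers of the feeder fibroblasts used in routine culture, Col1a1 (1.09 ± 0.24) and Dcn rose, Thy1 fell (-1.66 ± 0.46), Col1a2 did not pass the test (-0.10), and Col3a1, Lum and Postn lay under the brightness filter. Col3a1 signals were 4.20 and 15.0 with RA and 10.2, 3.32 and 10.9 at day 1. The summed signal of the 7 was 588 and 743 in the RA libraries, 384 to 444 at day 1, 363 to 481 in the controls and 621 to 707 at day 5. Dcn alone gave 188 and 285 of the RA sums and 19.8, 17.4 and 14.5 at day 1, so the difference rests mainly on this gene. Col1a2 gave 250 and 256 with RA and 265, 282 and 269 at day 1. Whether feeder cells had a part in the matrix and contractile changes was not tested. Among blood and endothelial markers Pecam1 fell (-0.82 ± 0.22), a call lost in 4 of the 5 runs that left out 1 library (all but the run without day 1 low), and Ptprc, Kdr, Cdh5 and Tal1 lay under the brightness filter.

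In the cadherin and adhesion list 8 of 26 members rose and 3 fell (median change 0.21). Beside Cdh2 and Ncam1, the desmosomal protein Dsp rose by 2.27 ± 0.30. Icam1, an immune adhesion receptor, fell (-1.43 ± 0.18), from 52.6, 39.0 and 51.0 to 17.05 and 13.1, and Epcam, an epithelial and ES cell adhesion protein, fell (-0.50 ± 0.13). The rises numbered 4 without the RA low library and 2 with the second day 1 high library added. The falls numbered 1 without either RA library, the day 1 high or the day 1 medium library, and 0 with that further library added.

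Imprinted genes rose in 10 of 19 cases, with 0 falls and a median change of 1.04. Mest had signals of 1711 and 2092 with RA and of 308, 215 and 325 at day 1 and rose by 2.75 ± 0.21 (adjusted p = 0.000509). At day 5 it was at 117 to 198 (difference 3.64 ± 0.24, adjusted p = 0.00039) and after 1 day of RA at 889.7 to 1081. Igf2, the fetal growth factor, rose by 3.56 ± 0.31, from 116, 149 and 237 to 1590 and 2352, and did not pass the test against day 5 (1447 to 3356, difference -0.16, adjusted p = 0.827). Sgce, a sarcoglycan, rose by 2.27 ± 0.16 and Ndn, necdin, a neuronal growth regulator, by 1.70 ± 0.14. Of 12 insulin-like growth factor genes 7 rose and 0 fell (median change 0.93). Irs2 and Irs1, docking proteins of the insulin and IGF receptors, rose by 3.01 ± 0.22 and 2.80 ± 0.20. Igfbp2, a binding protein, had signals of 3589 and 4187 against 1151, 1114 and 1063 (change 1.80 ± 0.15) and stood above day 5 by 2.78 ± 0.22. Igf1r, the receptor, rose by 1.43 ± 0.19. Igfbp3 rose by 0.81 ± 0.22 and was far below day 5, at 84.4 and 91.5 against 897 to 2079 (difference -4.02 ± 0.34, adjusted p = 0.000926). The imprinted list had 7 rises without the RA medium library, 8 without the RA low library and 1 with the second day 1 high library added, and the insulin-like growth factor list also had 1 with that library added.

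Cholesterol and fatty acid desaturation genes rose in 16 of 19 cases, with 0 falls and a median change of 1.02. Scd1, which desaturates fatty acids, led with 1342 and 1611 with RA against 278, 254 and 280.4 at day 1 (change 2.42 ± 0.15, adjusted p = 0.000205), and its second probe set rose by 2.78. Sc5d, Nsdhl and Msmo1, enzymes late in sterol synthesis, rose by 1.84 ± 0.15, 1.24 ± 0.15 and 1.18 ± 0.14. All 3 probe sets of Sc5d and all 4 of Nsdhl were called. Hmgcs1, early in the pathway, had 859.6 and 1051 against 308, 322 and 444 (change 1.42 ± 0.20). For several genes day 1 was also below the LIF controls, such as Scd1 at 526 to 823 and Sc5d at 27.0 to 38.2. Beside day 5, 10 of the 19 were higher with RA and 1, Hsd17b7, was lower (-1.13 ± 0.15). Scd1 was higher than day 5 by 2.05 ± 0.16 and Lss, lanosterol synthase, by 1.29 ± 0.16. The rises against day 1 numbered 7 without the RA medium library, 8 without the RA low library and 0 with the second day 1 high library added.

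Interferon-inducible and MHC class I genes rose in 10 of 17 cases and fell in 1 (median change 0.67). Gbp2, an interferon-inducible GTPase, had signals of 202 and 183 with RA and of 6.19, 10.5 and 10.8 at day 1 (change 3.92 ± 0.20, adjusted p = 0.000103). Gbp2b, its neighbour in sequence, rose by 3.99 ± 0.24, from 3.71, 1.43 and 2.60 to 125 and 79.5, and probes for such close relatives may share signal. Psmb8, an immunoproteasome subunit, rose by 2.49 ± 0.15, and H2-D1, a class I heavy chain, by 2.39 ± 0.17. B2m, the class I light chain, had 427 and 411 against 81.3, 51.2 and 67.2 (change 2.61 ± 0.20). The 27 constitutive proteasome genes did not follow: 0 rose and 0 fell (limma), at an unadjusted p under 0.05 0 were higher and 4 lower, and their median change was -0.15. Against day 5, 0 of the 17 interferon members were higher with RA and 9 were lower (limma). Gbp2 stood at 988 to 1884 at day 5 (difference -2.92 ± 0.28, adjusted p = 0.00141) and B2m at 869 to 1195 (-1.33 ± 0.18). H2-D1 did not pass that test (difference 0.34, adjusted p = 0.382). The 1 fall was Ifitm3 (-0.51 ± 0.14), a membrane protein of early germ cells. Without the RA medium library 6 rises were called, and with the second day 1 high library added 2. The fall was lost on leaving out any 1 library.

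Proliferation genes showed 0 rises and 4 falls among 29 (limma), with a median change of -0.30. At an unadjusted p under 0.05, 0 were higher and 11 lower. Mybl2, which drives late cell cycle genes, fell (-2.21 ± 0.20) on 3 probe sets, from 1228, 1341 and 1244 to 335 and 219.9. Mycn, a growth-promoting transcription factor of ES cells and progenitors, fell (-1.54 ± 0.16), and Rrm2, for deoxynucleotide supply (-0.68 ± 0.15). Mcm5, of the replicative helicase, fell (-0.80 ± 0.22). The list had 2 falls without the RA low, the day 1 high or the day 1 low library. Rrm2 and Mcm5 each lost their calls in 4 of the 5 runs that left out 1 library, and with the second day 1 high library added 0 of the 29 fell. The list of D cyclins and cyclin-dependent kinase inhibitors also holds some other cell cycle genes. Of its 16 measured members 4 rose and 0 fell. They were Cdkn1a, p21 (1.02 ± 0.16), Ccnd2, cyclin D2 (1.94 ± 0.49), Cdkn1c, p57 (0.65 ± 0.18), and Gadd45b, a stress sensor of neither class (2.33 ± 0.33). Without the RA low library 1 member of the list rose, and with the second day 1 high library added 0. Cdkn1a was not called without the RA low library, Ccnd2 without either RA library or the day 1 high library, and Cdkn1c without either RA library, the day 1 medium or the day 1 low library. Cdkn1a is also among the 5 of 13 p53 targets that rose, with Ccng1 (0.97 ± 0.18), Perp (1.29 ± 0.25), Phlda3 (0.76 ± 0.16) and Btg2 (0.66 ± 0.15), but the p53 list had 0 rises without the RA low library and 3 without the RA medium or the day 1 high library. It had 0 with the second day 1 high library added.

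Immediate early genes, which also respond to dissociation and sorting, accounted for most of the 5 rises among 20 stress genes. Atf3 rose by 2.19 ± 0.15, from 51.5, 48.2 and 44.5 to 215 and 255, Fos by 2.04 ± 0.26 and Jun by 1.34 ± 0.22. Fos was uneven over the day 1 gates (83.2, 105 and 159.9) and higher again at day 5 (2064 to 2735). Its RA signals of 478 and 466 lay within the range of the LIF controls (216 to 486). With the second day 1 high library added 0 of the 20 rose. Of 19 glycolysis genes 2 rose and 2 fell (median change -0.02). These shares, 10.5% each, were not far from the 8.85% risen and 6.9% fallen of all genes tested. The same holds for the apoptosis list (12.5% each), the blood and endothelium list (11.1% each) and the heat shock rises (10.5%) below. Of the lists above, it holds for the falls of the neural and axon guidance (9.09% each), cadherin and Nodal (11.5% each) and FGF (11.8%) lists. It also holds for the Polycomb rises (10.5%). The glucose transporters Slc2a1 and Slc2a3 rose by 1.83 ± 0.17 and 2.02 ± 0.23. Pfkp, a phosphofructokinase, and Pdk1, which blocks pyruvate entry into mitochondria, fell (-2.68 ± 0.25 and -1.44 ± 0.14). These 4 genes were called in each run that left out 1 library, and with the second day 1 high library added 0 members of the list rose and 2 fell. Another Pfkp probe set changed by -0.45. Among 16 apoptosis regulators 2 rose, Bcl2l1 (1.08 ± 0.16) and Casp6 (1.31 ± 0.22), and 2 fell, Bid (-1.13 ± 0.17) and Mcl1 (-1.14 ± 0.20). Casp6 and Mcl1 lost their calls without the RA low library, and with the second day 1 high library added 0 members rose and 1 fell. A second probe set of Bid changed by -0.07. Among 19 heat shock and unfolded protein genes 2 rose, the protein disulfide isomerases Pdia3 (0.81 ± 0.17) and Pdia6 (0.81 ± 0.16), and 0 fell. Pdia3 was not called without the RA medium or the day 1 medium library, nor Pdia6 without the RA low library. The list had 0 rises with the gate as a block and 0 with the second day 1 high library added. Of 9 blood and endothelium genes Cd44, a hyaluronan receptor, rose (2.41 ± 0.45), a call lost in 4 of the 5 runs that left out 1 library (all but the run without day 1 high).

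**Figure D5:**
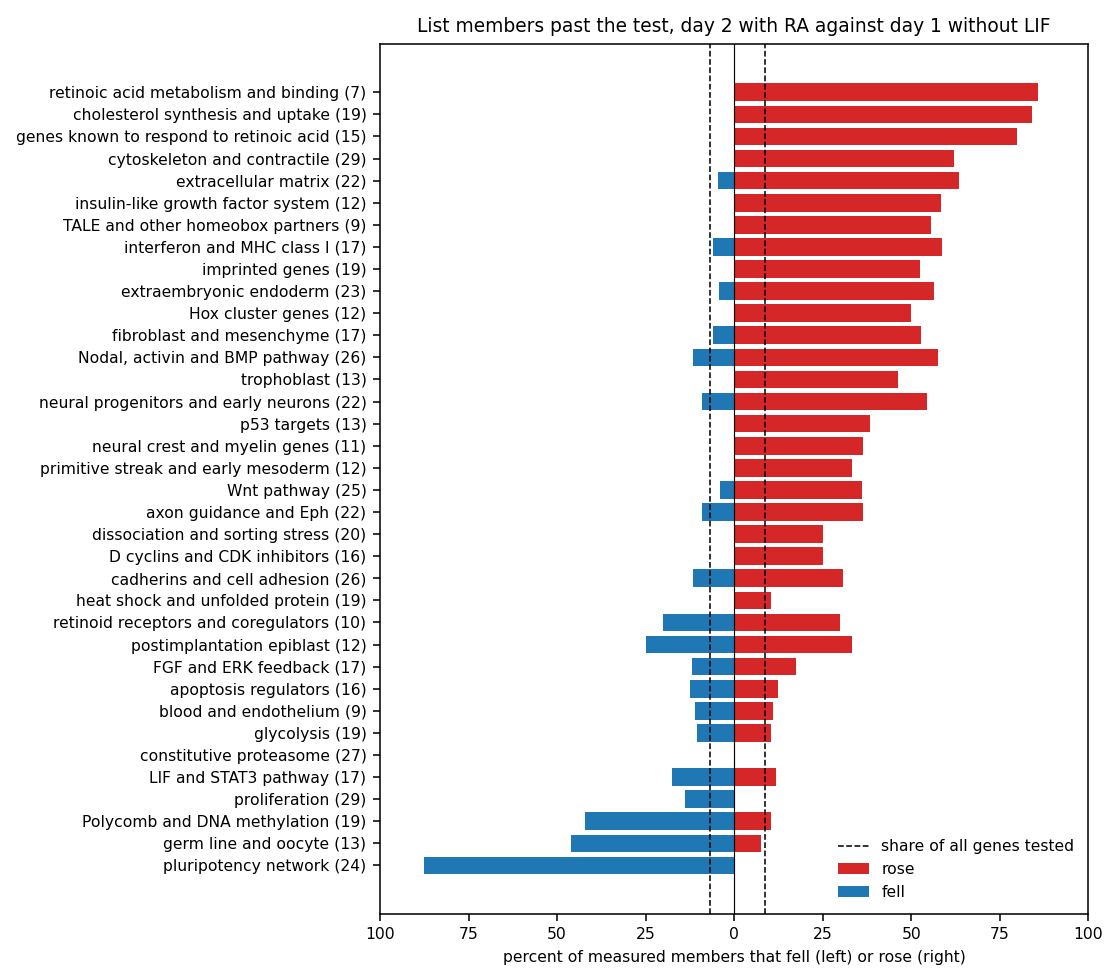
Percent of the measured members of each gene list that rose (red, right) or fell (blue, left), with the number of measured members in brackets. Dashed lines mark the shares of all genes tested, 8.85% risen and 6.9% fallen. Retinoic acid metabolism, cholesterol and RA-responsive genes have the largest shares of rises, the pluripotency network has the largest share of falls, and the constitutive proteasome has none of either. Some lists share members.

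The summed signal of 8 ES cell markers was 9006 and 7327 in the RA libraries, against 17910.5 to 18618 at day 1, 16979 to 20441 in the controls and 3658 to 3798 at day 5, and all 8 fell. The sum of 5 neural progenitor markers was 1418 and 1527 with RA, 624 to 836 at day 1 and 1022 to 1227 at day 5.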

How the data were processed

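RNA from 18 sorted samples was measured on 36 Affymetrix arrays (1 chip A and 1 chip B each). The deposited values are linear signal intensities that the authors computed with MAS5, per the submitters' processing notes as far as they were read here, which name the tool without a version. A 2% trimmed mean of the deposited signal was 150.04 to 150.10 on every array, so arrays had been scaled to 1 target. Signals were converted to log2(signal + 4) on chip A and log2(signal + 7) on chip B, about 0.1 of the median signal. The pseudocount shrinks changes of dim genes. The brightest 60% of probe sets by mean over all 18 arrays were kept (7453 of chip A, 7447 of chip B). Of 12422 and 12411 probe sets that are not controls, 10833 and 10581 had 1 gene symbol, 396 and 178 several and 1193 and 1652 none, and 10817 and 10550 were found by Entrez ID in RefSeq. Each of 9833 genes was represented by its brightest probe set, chip A before chip B. Of the changed genes, 451 had 2 or more probe sets tested. In 126 of these all probe sets were called the same way, and in 68 some probe set changed in the opposite direction.

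The 5 libraries were fitted with limma 3.58.1 in R 4.3.3 (lmFit and eBayes, group as the term), with Benjamini-Hochberg adjustment within each chip and a threshold of 0.05. The median half-width of the 95% interval of a change was 0.44, a precision set by how few arrays there are. In simulated data of this comparison over 14900 probe sets, 100% of 4-fold and 48% of 2-fold changes were recovered, with 14 false calls. The simulation changed 200 probe sets, fewer than were called in the data, and drew independent errors. Recovery in the data may therefore differ. Day 5 without LIF was compared likewise. Named genes were the 12 largest rises and falls without overlap, the up to 4 members of each of 36 lists with the smallest p, and 16 genes chosen by name. Others named were chosen after their values were seen. The members and lists were chosen with earlier results of these data known. Lists are described by counts and medians only. Alternatives varied the samples, the gates, the pseudocount, the filter, the normalization, the spread and the probe set.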

Additional observations from a re-analysis of the deposited data

Results flagged for a closer look

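Socs3 moved in opposite directions in the gates: the RA minus day 1 difference was -0.165 on the log2 scale in the medium gate and 0.347 in the low gate. For Cdh1 these differences were -0.133 and 0.0578. Each rests on 1 library a side, and the difference between the gates was not tested.

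The second library labelled day 1 without LIF, high gate, which no comparison above uses in its main values, had signal for RA-responsive genes above the other 3 day 1 libraries and all controls. On the log2 scale it exceeded the mean of the other 3 by 6.26 for Stra8, 4.81 for Cyp26a1 and 4.53 for Hoxb1. It exceeded them by 3.72 for Efnb1, 3.60 for Crabp2, 2.81 for Zfp703, 2.66 for Dhrs3, 2.41 for Tshz1 and 0.825 for Btg2. Its signal was 164 for Pmp22 and 55.8 for Cdh2, against 66.2 to 109 and 53.8 to 60.6 after 1 day of RA.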

How the results depend on the processing

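No paired analysis was possible because the labels of the RA day 2 libraries carry no replicate number that could pair them with day 1. A fit of the medium and low gates only, with the gate as a block, called 896 probe sets and 696 genes, against 2063 and 1548 with all 5 libraries. Leaving out 1 library gave 556 to 1468 probe sets and 433 to 1104 genes, the fewest without the RA low library, and 414 of those 433 genes were among the 1548. Without the brightness filter 1179 probe sets and 841 genes were called. All 18 libraries under their labels, with arm and gate as terms, gave 1176 and 891. Adding the second day 1 high library to the 5 gave 79 and 61, and 117 of the 137 named genes lost a call there. Against day 5, 1185 probe sets became 607 with the gate as a block, 353 to 805 on leaving out 1 library (353 without the RA medium, 478 without the RA low, 578 without the day 5 medium and 780 without the day 5 low library), 774 without the filter and 1811 with an intensity trend. The other alternatives kept the counts within 1.5 times. The cause of these moves was not tested, apart from the fewer libraries or the larger number of probe sets that the alternatives themselves bring.

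The share of called probe sets that were higher with RA was 56.8%, and 50.3% after quantile normalization. The Cdh1 log2 change of -0.07 lay between -0.165 and 0.00733 on leaving out 1 library, and was above 0 without the RA low (0.00733) and without the day 1 medium library (0.00412). Without the filter another, dimmer chip A probe set represents Dach1 (-0.15) and Spn (0.27), neither past the test. Of the 137 named genes 17 were called under each alternative that tested them, among them Pfkp, Pdk1, Cdh2, Crabp1, Dppa3, Gbp2, Hes1 and Myb. The comparison rests on 2 RA libraries without a high gate. Genes under the brightness filter, such as Rarb, were not tested, although some of them, such as Hoxa9 on chip B, were bright in the RA libraries.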
